A study of Mus musculus with 8 samples.

Results

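The growth hormone and insulin-like growth factor axis was described in mouse liver over 9 genes, namely the receptor Ghr, the transcription factor Stat5b, the feedback inhibitor Socs2, the hormone Igf1, its serum partner Igfals and the binding proteins Igfbp1, Igfbp2, Igfbp3 and Igfbp4. The members were all probe sets whose platform annotation gave one of these symbols as its only gene. This gave 26 probe sets for 9 of the 18193 genes named on the array, of which 24 passed the filter on signal and were tested. Liver RNA had been hybridised to 8 arrays of the Affymetrix Mouse Genome 430 2.0 design, in a search for genes of hepatic aging that depend on Sirt1. There were 4 groups with 2 arrays each: wild type (WT) mice of 3, 12 and 19 months, and mice labelled sirt1 KO (mutant, MT) of 3 months. All groups shared a background mixed from the strains 129/FVB/Black Swiss, and killing by Avertin between 9 and 11 AM. The labels speak of RNALater and the design text of freezing. The MT mice carried a germline deletion within Sirt1, an NAD-dependent deacetylase, in every cell, and few such mice survive to adulthood, so they were a surviving minority. The sources used here give no feeding state. They name more mice than arrays for each group and do not say which mice went onto which array. The p-values therefore reflect the spread between arrays, part of which may be technical.

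Growth hormone from the pituitary binds its receptor on hepatocytes, and the receptor-bound kinase JAK2 then phosphorylates STAT5 proteins, which enter the nucleus and switch on genes such as Igf1, Igfals and Socs2. The liver is the main source of circulating IGF1, which travels in a complex of IGFBP3 with the acid-labile subunit, while IGFBP1 and IGFBP2 bind IGFs outside that complex and their hepatic transcripts are known to rise in fasting and fall with insulin. SOCS2 closes the loop as an inhibitor of the receptor, and Socs2 mRNA is a rapid readout of growth hormone input, which reaches the liver in pulses.

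The arrays gave liver profiles, with no hepatocyte marker below the median signal of its array (74.5 to 82.8). All 8 arrays held Xist, the noncoding RNA of the inactive X chromosome, at 3918 to 23826 on 3 probe sets, and 9 probe sets of 3 Y-linked genes at 0.129 to 58.2, below the array median. The methods speak of male mutants, so the sex the arrays point to and the sex in that description differ. Sex matters to this axis because growth hormone pulses differ between males and females. The only named Sirt1 probe set read 589 and 539 in WT of 3 months and 615 and 713 in MT. The sources used here do not say where it lies relative to the deleted exons, so it does not check the genotype labels.

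Promoters of the RefSeq mouse annotation (GRCm38.p6) were searched for 3 short motifs: elements of STAT5 and FOXO, factors through which growth hormone and insulin are known to act on genes of this axis, and the E-box, which clock factors and other factors bind. The windows ran from 250 bases before to 50 bases after a start, and 8 of the 9 genes had one, in 13 windows. The search covered both strands of TTCNNNGAA (the STAT5 type), CAAAACAA (the FOXO type) and CACGTG (the E-box). Of all 32851 windows, 8.30% held the first, 2.51% the second and 7.15% the third. Stretches are printed for Igfbp1, Igfbp2 and Igfals, the genes that held a match, and run from 150 to 31 bases before the start on the plus strand, with the match in capitals.
Igfbp1, chr11:7197637-7197756: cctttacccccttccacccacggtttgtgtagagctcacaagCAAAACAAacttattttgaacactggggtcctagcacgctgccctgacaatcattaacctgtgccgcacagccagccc
Igfbp2, chr1:72824330-72824449: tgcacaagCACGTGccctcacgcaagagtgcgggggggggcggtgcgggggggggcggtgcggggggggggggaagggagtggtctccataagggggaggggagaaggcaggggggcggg
Igfals, chr17:24878081-24878200: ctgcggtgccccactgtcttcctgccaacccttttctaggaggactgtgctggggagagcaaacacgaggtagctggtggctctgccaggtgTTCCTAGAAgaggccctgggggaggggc
The matches began 108 bases before the start of Igfbp1, 142 before that of Igfbp2 and 58 before that of Igfals, and a second Igfals window held TTCTCAGAA at 236 bases before its start. The other 5 genes with a window held none of the 3 motifs in it. A match is a description of letters and no binding was measured here.

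In the MT livers, 1 probe set of Socs2 fell, and the signals of Stat5b and Igf1 lay below those of the 3-month WT livers without passing the test. Of the 24 tested probe sets, 1 was called at an adjusted p under 0.05 by limma with Benjamini-Hochberg adjustment, against 0.515% of all 22519 tested (0.266% called as lower, the direction of this one). By direction, 8 probe sets lay above 0 and 16 below, with a median log2 difference of -0.31 against 0.02 over all tested probe sets. At an unadjusted p under 0.05 there were 6 of 24, against 13.5% of all tested. Both MT arrays lay below both WT arrays for 13 probe sets and above them for 5, where 21.7% and 24.0% of all tested probe sets did so. Several probe sets read the same gene, so these counts do not rest on 24 separate transcripts.

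**Figure D1:**
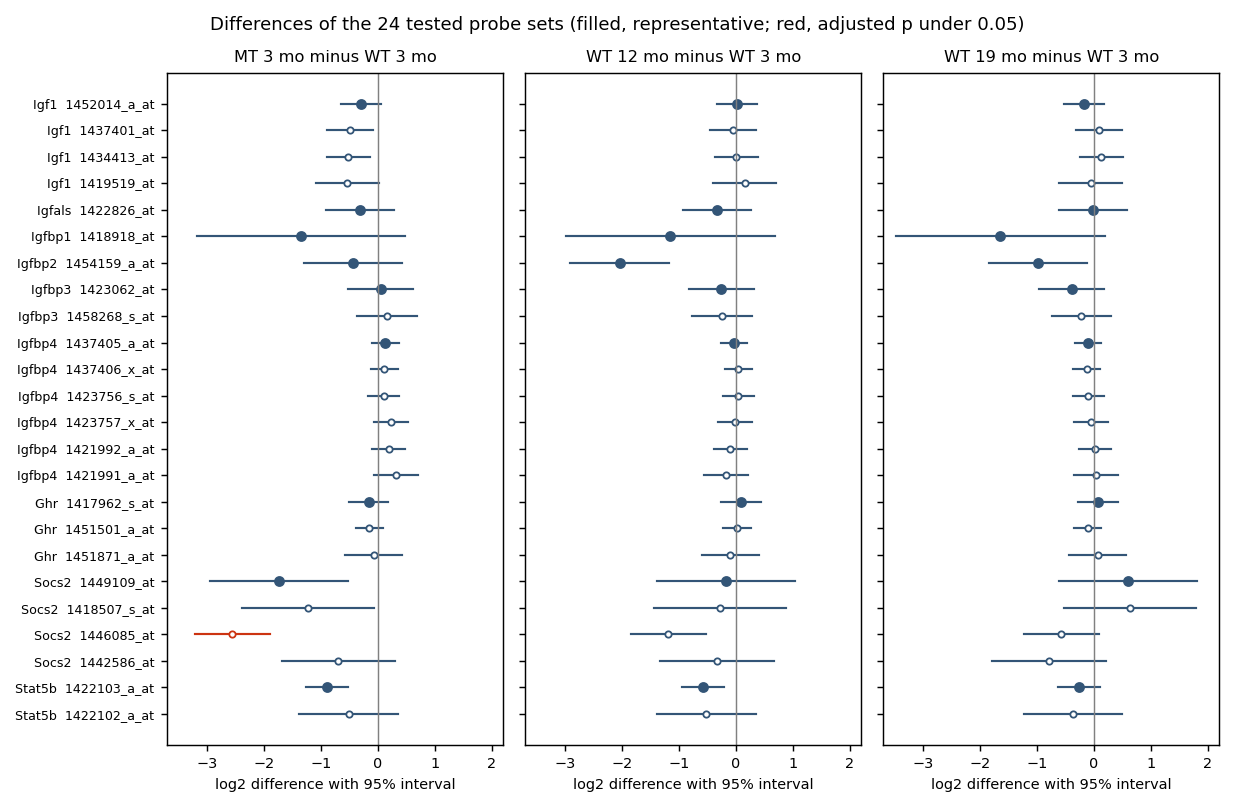
Log2 difference (x axis) of each of the 24 tested probe sets (y axis) for MT and for WT of 12 and 19 months against WT of 3 months, with the 95% interval of the limma fit; filled points are the probe set of highest mean per gene. A single Socs2 probe set in MT, at -2.56, has an adjusted p under 0.05.

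Ghr, the growth hormone receptor, was read by 3 probe sets. The probe set of highest mean read 21122 and 23500 on the 3-month WT arrays, 20194 and 27687 at 12 months, 22512 and 24146 at 19 months, and 18977 and 20806 in MT. The MT arrays lay below both 3-month WT arrays, and the older WT arrays overlapped them. The MT difference was -0.17 on the log2 scale (95% interval -0.51 to 0.18, adjusted p = 0.709 by limma), and the age differences were 0.09 (-0.26 to 0.43) and 0.07 (-0.28 to 0.41). A second bright probe set gave -0.15 in MT and a dim one, at 533 to 811 on all arrays, gave -0.08.

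Stat5b, the transcription factor downstream of the receptor, read 1516 and 1432 on the 3-month WT arrays, 1007 and 968 at 12 months, 1365 and 1107 at 19 months, and 846 and 738 in MT. All other groups lay below the 3-month WT arrays, with MT lowest and no overlap between the MT arrays and any WT array. The MT difference was -0.90 ± 0.16 (SE, n = 2 arrays per group) on the log2 scale, or 1.86-fold lower (95% interval -1.26 to -0.53), with an adjusted p of 0.0528 by limma, just outside the threshold. The adjusted p by limma was 0.0497 after adding 32 to each signal before the log, and other settings under the threshold are given below. It was 0.155 without the variance trend, and 0.173 with the mean of the gene's probe sets, where the difference was -0.71. The methods' t-test with Benjamini-Hochberg adjustment gave 0.437. With 1 array left out the difference ran from -0.997 to -0.801. The 12-month difference was -0.58 ± 0.16 (adjusted p = 0.369) and the 19-month difference -0.26 ± 0.16 (adjusted p = 0.562). A second, dim probe set of 73.4 to 148 gave -0.51, -0.52 and -0.37 for MT, 12 and 19 months, all below the 3-month WT arrays without overlap and none past the test. Of all tested probe sets 21.7%, 20.8% and 21.8% lay lower without overlap in these comparisons, which all share the 3-month WT arrays.

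Socs2, the inhibitor of the receptor, was read by 6 probe sets, 4 of them tested. The bright one, designed on a RefSeq mRNA, read 1269 and 3813 on the 3-month WT arrays, 1901 and 1976 at 12 months, 4918 and 2248 at 19 months, and 444 and 987 in MT. Both MT arrays were the lowest of the 8, while the WT arrays of 3 months differed 3.00-fold and those of 19 months 2.19-fold. The MT difference was -1.73 ± 0.54 on the log2 scale, or 3.33-fold lower (95% interval -2.94 to -0.52, adjusted p = 0.201 by limma). It was -0.94 without the second 3-month WT array and -2.53 without the first, so its size rests on which of them is used.

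The called Socs2 probe set is a dim one designed on an EST. It read 242 and 378 on the 3-month WT arrays, 124 and 142 at 12 months, 220 and 186 at 19 months, and 51.7 and 51.2 in MT. The MT arrays stood clear of all 6 WT arrays and below their own array medians. The difference was -2.56 ± 0.29 on the log2 scale, or 5.88-fold lower (95% interval -3.22 to -1.89, adjusted p = 0.0115 by limma). Without the second 3-month WT array it was -2.23 with an adjusted p of 0.101, and detection calls were not used here, so whether 51 is above background was not tested. The other 2 tested probe sets gave -1.23 (adjusted p = 0.341 by limma) and -0.69 (adjusted p = 0.544). All 4 thus lay lower in MT without overlap, as 21.7% of all tested probe sets did. Over the 8 arrays the 6 pairs among these 4 probe sets correlated at r = 0.42 to 0.98, the highest between the 2 brightest. The 2 untested probe sets had signals of 4.71 to 92.8.

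With age, no Socs2 probe set passed the test. The bright probe set gave -0.18 at 12 months (95% interval -1.39 to 1.03) and 0.60 at 19 months (-0.61 to 1.81), and the EST probe set gave -1.19 ± 0.29 (adjusted p = 0.297) and -0.58 ± 0.29 (adjusted p = 0.475). The probe sets thus differ in sign at 19 months.

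**Figure D2:**
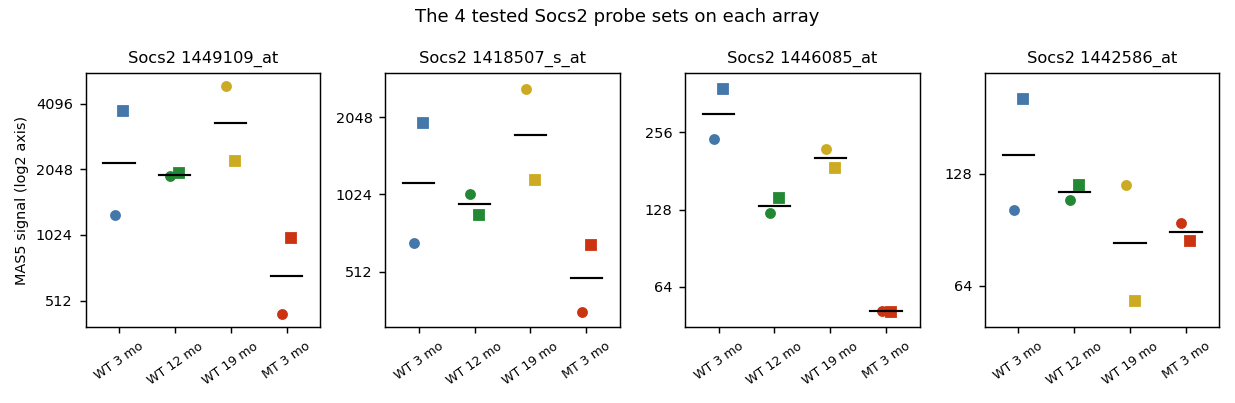
MAS5 signal (y axis, log2 scale, each panel its own range) of the 4 tested Socs2 probe sets on each of the 8 arrays (circle, array 1; square, array 2; bar, geometric mean of both). In all 4 panels both MT arrays lie below both 3-month WT arrays, and in the third they read 51.7 and 51.2 against 124 or more in WT.

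Igf1, the hormone itself, was read by 4 bright probe sets. The brightest read 25170 and 23731 on the 3-month WT arrays, 25179 and 24459 at 12 months, 21466 and 21726 at 19 months, and 23638 and 16725 in MT. The first MT array lay close to WT and the second was the lowest of the 8. The MT difference was -0.30 ± 0.16 (95% interval -0.65 to 0.05, adjusted p = 0.447 by limma). The other 3 gave -0.49, -0.52 and -0.54, with adjusted p values of 0.220 to 0.384 by limma. On all 4 the MT arrays lay below both 3-month WT arrays, as for 21.7% of all tested probe sets. Without the second MT array the brightest probe set gave -0.05, so its distance from WT rests largely on that array. On the other 3 the first MT array also lay below both 3-month WT arrays, and the second lay lower still. With age the brightest probe set gave 0.02 (-0.33 to 0.37) at 12 months and -0.18 (-0.53 to 0.17) at 19 months, and at 19 months 2 of the 4 lay above 0 and 2 below.

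Igfals encodes the acid-labile subunit that holds IGF1 in the circulating complex. It read 3072 and 2681 on the 3-month WT arrays, 2843 and 1812 at 12 months, 3399 and 2360 at 19 months, and 2771 and 1912 in MT. The groups overlapped throughout. The log2 differences from the 3-month WT arrays were -0.32 in MT (95% interval -0.91 to 0.28), -0.34 at 12 months (-0.93 to 0.26) and -0.02 at 19 months (-0.61 to 0.57). With 2 arrays per group these intervals were wide. Their ends are not limits of detection, since calls used p-values adjusted over all tested probe sets.

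**Figure D3:**
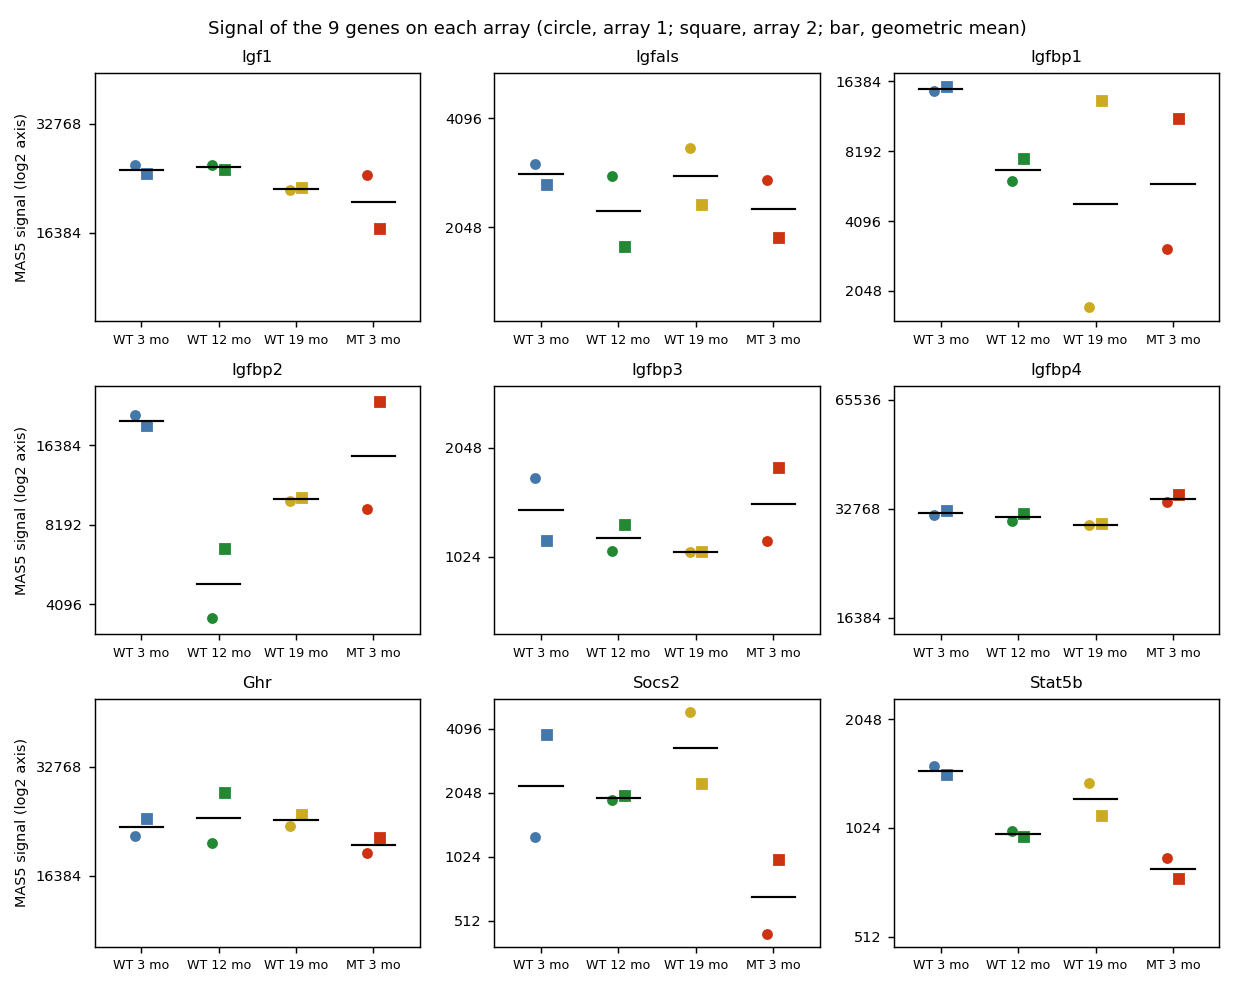
MAS5 signal (y axis, log2 scale) of the probe set of highest mean of each of the 9 genes on each of the 8 arrays (circle, array 1; square, array 2; bar, geometric mean of both). Igfbp1 spans 1748 to 15453 and Igfbp2 3641 to 23843, while Igfbp4 keeps to 29564 to 35713.

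Igfbp2, a binding protein made by hepatocytes, had the largest difference with age among the members. Its 1 probe set read 21227 and 19306 on the 3-month WT arrays, 3641 and 6623 at 12 months, 10119 and 10316 at 19 months, and 9400 and 23843 in MT. The 12-month arrays were the lowest of the 8, and the 19-month arrays lay between them and the 3-month WT arrays. The MT arrays fell on either side of the 3-month WT arrays. The 12-month difference was -2.04 ± 0.39 on the log2 scale, or 4.12-fold lower (95% interval -2.91 to -1.18), with an unadjusted p of 0.000428 and an adjusted p of 0.189 by limma, so it was not called. With either MT array left out of the fit it was called (adjusted p = 0.0348 and 0.0355), since the spread between the MT arrays enters the shared error. The 19-month difference was -0.99 ± 0.39 (adjusted p = 0.352), or 1.98-fold lower, with an adjusted p of 0.0119 when only the arrays of these groups were fitted. In MT the value was -0.44 (95% interval -1.30 to 0.43), and 0.24 or -1.11 with the first or the second MT array left out.

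Igfbp1, the binding protein that responds most quickly to insulin and fasting, was uneven between the arrays of the 19-month WT group and of MT. It read 14856 and 15453 on the 3-month WT arrays, 6118 and 7608 at 12 months, 1748 and 13439 at 19 months, and 3118 and 11328 in MT. The 3-month WT arrays were the highest pair, and all other 6 arrays lay below them. The log2 differences were -1.35 ± 0.81 in MT (95% interval -3.18 to 0.48, adjusted p = 0.518), -1.15 ± 0.81 at 12 months (-2.98 to 0.68, adjusted p = 0.747) and -1.64 ± 0.81 at 19 months (-3.48 to 0.19, adjusted p = 0.458, all by limma). Without the first or the second array of the group, the MT value was -0.42 or -2.28 and the 19-month value -0.17 or -3.12, so their sizes rest on single arrays. The arrays differed only 1.04-fold in WT of 3 months and 1.24-fold at 12 months, but the wider pairs enter the shared error of the 12-month interval. With 1 array left out the 12-month value ran from -1.31 to -0.99. Its lowest adjusted p over the alternatives was 0.0641 by limma. All 3 comparisons share the 3-month WT arrays, so they do not count as separate observations.

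Igfbp3, which carries most circulating IGF1 and in liver is known mainly from non-parenchymal cells, read 1695 and 1130 on the 3-month WT arrays, 1062 and 1258 at 12 months, 1054 and 1054 at 19 months, and 1135 and 1807 in MT. The WT arrays of 19 months lay below those of 3 months, and the other groups overlapped them. The log2 differences were 0.05 in MT (95% interval -0.52 to 0.62), -0.26 at 12 months (-0.83 to 0.31) and -0.39 at 19 months (-0.96 to 0.17), and a second probe set gave 0.16, -0.24 and -0.22. In whole liver, fewer cells of a type and less RNA per cell cannot be told apart.

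Igfbp4, which restrains IGF action in tissues, was the steadiest member. Its brightest probe set read 31483 and 32329 on the 3-month WT arrays, 30340 and 31738 at 12 months, 29564 and 29635 at 19 months, and 34200 and 35713 in MT. The MT arrays were the highest of the 8 and the 19-month arrays the lowest, within a narrow range. The MT difference was 0.13 (95% interval -0.10 to 0.36, adjusted p = 0.629 by limma). All 6 Igfbp4 probe sets lay above 0 in MT, at 0.10 to 0.31, but none passed the test. For 5 of them both MT arrays lay above both 3-month WT arrays, as for 24.0% of all tested probe sets. The 6 probe sets read the same gene on the same arrays, so they do not count as separate observations. With age they ran from -0.18 to 0.04 at 12 months and from -0.13 to 0.03 at 19 months.

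In the comparisons by age, 0 of the 24 tested probe sets were called by limma at 12 months, where 0.0133% of all tested were called, and 0 at 19 months, where 0.0355% were. At an unadjusted p under 0.05 there were 3 at 12 months (8.57% of all tested) and 1 at 19 months (12.5%). The methods' t-test with a fold over 1.5 picked 2 at 12 months (2.23% of all tested) and 1 at 19 months (3.33%). At 12 months 17 of 24 lay below 0 with a median of -0.14 against 0.00 over all tested, and at 19 months 16 with a median of -0.10 against 0.02. Arrays lay lower without overlap for 6 at 12 months (20.8% of all tested) and 12 at 19 months (21.8%). The difference between both age effects was tested directly as 19 against 12 months, with 0 called by limma (0.0% of all tested) and 1 at an unadjusted p under 0.05 (10.7%). That one was Igfbp2, 1.06 ± 0.39 higher at 19 than at 12 months (95% interval 0.19 to 1.92, adjusted p = 0.385). The main Stat5b probe set gave 0.32 (-0.05 to 0.68), and the EST probe set of Socs2 0.61 (-0.05 to 1.27).

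The spread between both arrays of a group was widest for Igfbp1, Socs2 and Igfbp2. Igfbp1 differed 7.69-fold between the 19-month WT arrays, a gap that 0.111% of tested probe sets reached, and 3.63-fold between the MT arrays (0.750%). Igfbp2 differed 2.54-fold between the MT arrays (2.0%), and Socs2 3.00-fold between the 3-month WT arrays (0.795%). Median gaps over all tested probe sets were 0.19 to 0.26 on the log2 scale. By the probe set of highest mean, Igf1 and Igfals were lower and Igfbp1, Igfbp2, Igfbp3 and Socs2 higher on the second MT array than on the first. Of the 4 tested Socs2 probe sets, 2 were higher and 2 lower there, the called one by 0.01 on the log2 scale. Of 19 tested genes of fasting and FGF21 signalling, 17 were higher on that second array, with a median of 0.20. The same genes were higher on the second array for 15 of 19 in WT of 3 months, 14 at 12 months and 13 at 19 months, with medians of 0.21, 0.60 and 0.28. Their part in the members' spread was not tested.

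**Figure D4:**
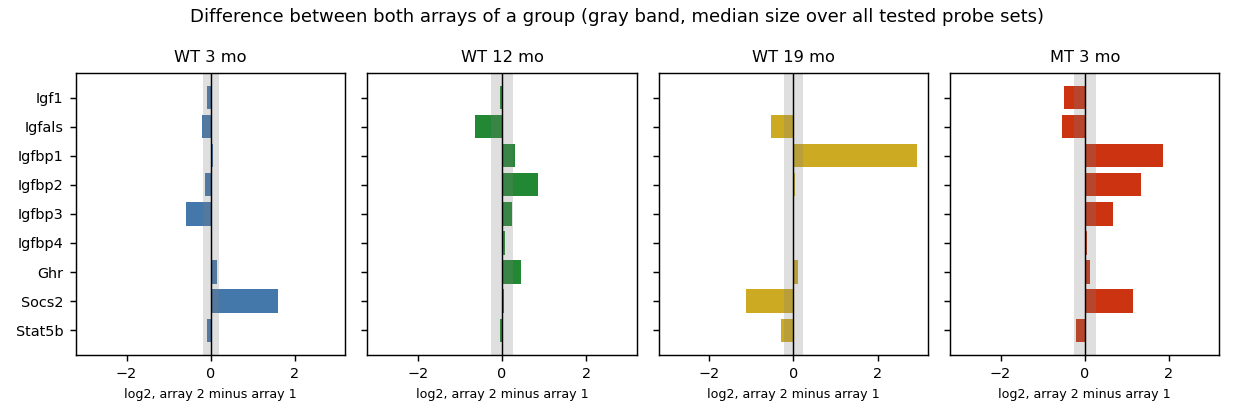
Log2 difference between array 2 and array 1 (x axis) of each group, for the probe set of highest mean of each of the 9 genes (y axis); the gray band is the median size of that difference over all tested probe sets. The longest bars are Igfbp1 at 19 months (2.94) and in MT (1.86), and Socs2 in WT of 3 months (1.59).

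Ordered by the range of the 4 group means over the SD between arrays of a group, Igfbp4 (6.92), Stat5b (6.81) and Igfbp2 (3.61) stood first and Igfals (0.95) last. The genes whose log2 signals over the 8 arrays were most like Stat5b, among 10975 compared, were Sncb (r = 0.98), Bloc1s3 (0.96) and Nsfl1c (0.95). Those most like Igfbp2 were Rdh9, Lysmd3 and Pde8b (0.97 each), and those most like Igfbp4 were Cdipt (0.98), Adk (0.98) and Them4 (0.96). With 8 arrays and so many genes compared, coefficients of this size are a description. Among the members themselves r ran from -0.69 (Igfbp4 with Socs2) to 0.66 (Igfbp2 with Igfbp3).

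Of the other genes of growth hormone receptor signalling, 16 were tested, and 0 passed in any comparison. In MT 7 lay above 0 and 9 below, with a median of -0.03 against 0.00 over all genes. The largest by size of the moderated t were Socs3 (-1.21 ± 0.30, adjusted p = 0.118), an inhibitor induced by cytokines and growth hormone, and Cish (-1.34 ± 0.51, adjusted p = 0.291), a relative of Socs2 that STAT5 also induces. Cish read 272 and 844 on the 3-month WT arrays, 492 and 858 at 12 months, 601 and 674 at 19 months, and 134 and 268 in MT. Like the signals of the brightest Socs2 probe set, those of Cish were lowest on both MT arrays and higher on the second than on the first 3-month WT array. The dimmest tested Socs2 probe set had its lowest signal, 58.1, on a 19-month WT array. With age the list had medians of 0.04 at 12 months and 0.15 at 19 months. Largest there by moderated t were Socs3 (-0.99, adjusted p = 0.420) and the hepatic transcription factor Onecut1 (1.25, adjusted p = 0.490) at 12 months, and Hnf4a (0.23) and Onecut1 (0.74) at 19 months.

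The 18 tested genes of the IGF and insulin receptors and their signal gave 9 above 0 and 9 below in MT, with 0 called in any comparison and a median of 0.04. Largest by moderated t in MT were Pik3r1, a regulatory subunit of PI3-kinase (0.70 ± 0.16, adjusted p = 0.0941), and Grb14, an adaptor that inhibits the insulin receptor (-0.70 ± 0.18, adjusted p = 0.127). By the same measure they were at 12 months Grb10, another adaptor of these receptors (-1.11, adjusted p = 0.390), and Pik3r1 (0.50, adjusted p = 0.450). By moderated t at 19 months they were Grb10 (-1.39 ± 0.32, adjusted p = 0.190), and the insulin receptor Insr (-0.47 ± 0.13, adjusted p = 0.238). Of 9 tested other ligands, binding proteins and proteases, 0 were called in any comparison, and the medians ran from -0.09 to 0.02. Igf2, the fetal ligand, gave 1.56, 1.53 and 1.93 in MT, at 12 and at 19 months, from signals of 17.6 to 176 that lay below the array median on 3 arrays. The protease Mmp14 gave 0.58 in MT and 0.66 at 19 months, and the protease Adamts1 gave -0.46 at 12 months.

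Genes that growth hormone sets at different levels in male and female liver gave 1 call in MT, Cyp7b1, an oxysterol hydroxylase of the male-biased list (-2.11 ± 0.15, adjusted p = 0.000748 by limma). Over all tested probe sets 0.515% were called in MT. Of 17 male-biased genes on the array 12 were tested, and 3 of them lay above 0 and 9 below in MT, with a median of -0.57. Over all genes 49.4% lay below 0, with a median of 0.00. All 8 arrays held high Xist and Y-linked signals below the array median, so no loss of a male pattern can be read from this list. The pseudogene Serpina4-ps1 of the male-biased list gave -4.94 ± 0.95 in MT (adjusted p = 0.0613 by limma). Its signals were 579 and 887 in WT of 3 months, 110 and 237 at 12 months, 37.5 and 318 at 19 months, and 48.9 and 11.1 in MT. The older WT arrays thus also lay below the 3-month WT arrays, by -2.15 at 12 and -2.71 at 19 months on the log2 scale. Of 19 tested female-biased genes 9 lay above and 10 below, with a median of -0.02 and 0 called. The transporter Slc22a27 (0.77, adjusted p = 0.0687) and the neurotrophin receptor Ntrk2 (-1.79, adjusted p = 0.106) were the largest of these by moderated t in MT. Slc22a27 also gave 0.69 at 12 and 0.77 at 19 months, while Ntrk2 gave 0.87 and 0.37, none of them called. At 19 months Cyp7b1 was also called (-1.19 ± 0.15, adjusted p = 0.0459 by limma), where 0.0355% of all tested probe sets were. Male-biased genes had a median of -0.39 and female-biased genes of -0.26, against 0.02 over all genes. At that age the second array lay below the first for 18 of the 19 female-biased genes, with a median of -0.62. At 12 months the medians were -0.17 and -0.14, and Cyp7b1 gave -1.02 ± 0.15 without a call (adjusted p = 0.103 by limma). Its values in MT and at both ages share the 3-month WT arrays, so they are not separate observations.

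Among the 19 fasting and FGF21 genes 13 lay below 0 in MT (median -0.16), 14 at 12 months (-0.20) and 15 at 19 months (-0.36), with 0 called. The largest by their moderated t included Pdk4, the kinase that restrains pyruvate oxidation, in MT (-1.15, adjusted p = 0.102), Asns, asparagine synthetase, at 12 months (-2.10, adjusted p = 0.280) and Lpin1, a phosphatidate phosphatase, at 19 months (-1.38, adjusted p = 0.260). In all 3 comparisons they included Trib3, a stress-induced pseudokinase, at -1.12, -1.25 and -1.62 (adjusted p = 0.122, 0.258 and 0.0959).

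**Figure D5:**
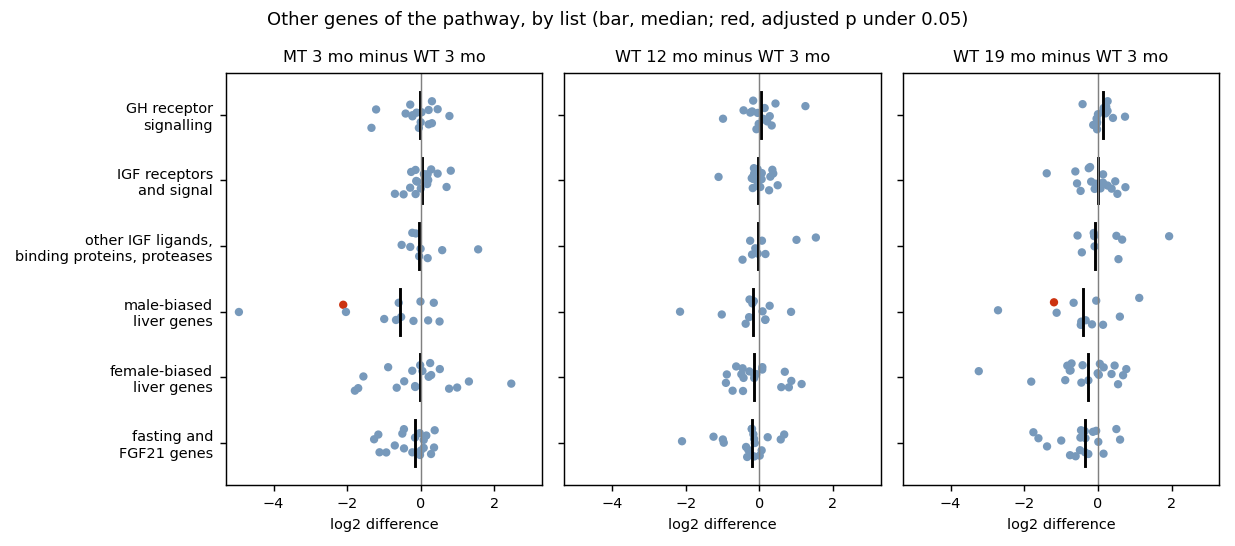
Log2 difference (x axis) of each tested gene of 6 lists of the pathway (y axis) for MT and for WT of 12 and 19 months against WT of 3 months; bars are list medians. The only points with an adjusted p under 0.05 are Cyp7b1 in MT (-2.11) and at 19 months (-1.19).

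Summed signals of markers of other cell types differed between the ages. The summed signal of 15 Kupffer cell markers was 41709 to 64703 at 19 months against 33948 to 34777 at 3 months in WT, and all 15 lay above 0 (median 0.64). That of 12 lymphocyte markers was 9813 to 10049 against 2614 to 3005, with Cd79a below the array median throughout. Of its 10 tested genes 7 lay above 0 and 3 below at 19 months, and the immunoglobulin genes Ighm (2.74), Igha (3.34) and Jchain (2.74) stood highest while Gzma, a granzyme of cytotoxic cells, gave -1.98. These were named after their values were seen. Igha alone of the list was called, at 12 months (2.49, adjusted p = 0.00902 by limma) and at 19 months (adjusted p = 0.000650). The sum of 13 hepatocyte markers was 436577 to 462729 at 19 months against 510657 to 535990. At 12 months the hepatocyte sum was 512335 to 567419, the Kupffer sum 30721 to 31556 and the lymphocyte sum 5087 to 6164.5. At that age 10 of the 15 Kupffer markers lay below 0 (median -0.07), as did 6 of the 10 tested lymphocyte genes (median -0.29). In MT the hepatocyte sum was 534001 to 571603 and the Kupffer sum 26713 to 29043. Over all 8 arrays the sums of 16 sinusoidal endothelial markers (20621 to 25806) and 15 stellate cell markers (25016 to 29126) varied less than the Kupffer sum. That of 6 bile duct markers ran from 221 to 456, and only 1 of these 6 passed the filter on signal. No marker was at or under the floor of 1. The part of cell makeup in the values of the members was not tested.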

How the data were processed

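Liver RNA was hybridised to 8 arrays, 2 for each of 4 groups. The authors deposited MAS5 signal intensities on a linear scale, with a MAS5 version that the sources used here do not state. Neither detection calls nor scanner output were used here. Of 45101 probe sets, 64 controls were left out, and 34945 of the other 45037 carried 1 gene symbol. Groups were taken from the genotype and age labels.

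Signals under 1 were set to 1 and put on the log2 scale without further scaling. Tests ran on the upper 50% by mean log2 signal (22519, mean 6.18 or more) in limma 3.58.1 under R 4.3.3 (variance trend, all 4 groups in 1 fit, 4 residual and 5.37 prior degrees of freedom), with two-sided p-values adjusted by Benjamini-Hochberg over all tested probe sets. Exact permutation was not used, since its smallest p for 2 against 2 arrays is 0.333. The scripts were tested on simulated data and summaries were made with pandas 2.3.3 and numpy 2.4.6. The probe set of highest mean stood for its gene. Every member was named, of each list the genes called and the 2 of largest moderated t, with examples of those in the text, and the 3 genes most like each of the 3 members with the largest range of group means relative to the SD between arrays.

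The members and gene lists were chosen with earlier results of these data known. Alternatives changed the scaling, floor, filter, fit, test and arrays used.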

Additional observations from a re-analysis of the deposited data

How the results depend on the processing

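The methods' t-test asked for an unadjusted p under 0.05 and a fold over 1.5. It picked 3.95% of all tested probe sets in MT, 2.23% at 12 months and 3.33% at 19 months. The 1 called member in MT, a Socs2 probe set, became 2 after adding 32 to each signal and 2 with that t-test. It became 0 with that t-test after Benjamini-Hochberg adjustment and 0 of 9 genes with the mean of a gene's probe sets. Leaving out 1 array gave 0 to 2: it was 0 without the second WT array of 3 months and 2, with Stat5b added, without either WT array of 12 months. At 12 months the count of 0 became 2 with the methods' t-test, and 0 to 1 with 1 array left out (Igfbp2 without either MT array). At 19 months it became 1 with only the groups compared, 1 with the methods' t-test, and stayed 0 with 1 array left out. For 19 against 12 months all alternatives gave 0. Over all tested probe sets, the 116 calls in MT became 9 without the variance trend and 13 to 255 with 1 array left out, the 3 at 12 months 0 and 0 to 20, the 8 at 19 months 1 and 2 to 30, and the 0 between these ages 0 and 0 to 11. With only the brighter 50% of these probe sets tested, the Socs2 probe set fell out and Stat5b was called (adjusted p = 0.0385), so the count stayed 1. Of 48 single results, 18 took another sign under at least 1 alternative, all of them uncalled and the largest at 0.63.

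The replicate numbers of the titles were also fitted as a replicate block, which gave 2 calls in MT, Socs2 and Stat5b (adjusted p = 0.0467). Deviations of arrays with the same number correlated at -0.033 to 0.141 over probe sets. A correlation over all tested probe sets cannot exclude that the numbers pair the samples for some genes. Most of the fasting and FGF21 genes were higher on the second array in each group, as given above. The causes of these changes were not tested. With 2 arrays per group, intervals of the members span up to several log2 units, and the arrays' own number limits the precision.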
